A study of Homo sapiens with 19 samples.

Results

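The EGF family ligands examined here are 6 genes, EREG, AREG, HBEGF, NRG1, TGFA and BTC, found by their gene name among the 31033 gene names of the array. They were followed in THP-1, a human monocytic leukemia line that PMA, an activator of protein kinase C, turns into macrophage-like cells. All cells were first differentiated with 30 nM PMA and then rested. After that they were either left untreated (UT) or given 0.1 mM vit C, and both arms were harvested 8, 24, 48 and 96 h from the addition of vit C. UT cells were measured on 2, 3, 2 and 3 arrays at these times, and vit C-treated cells on 3, 2, 2 and 2 arrays. The groups model macrophages in a single cell line. The samples were separate cultures according to the study's methods, which set aside those of lower RNA quality.

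The members were chosen with their values on these arrays known. Their levels and differences are therefore given as a description. The fit across all genes includes them, and which of them it called is listed once, with nothing read from it. A level is the log2 signal of a probe minus the 75th percentile of its array. Where a gene had several probes, its value is that of the brightest, the probe with the highest mean level. Levels of different probes are not set against each other, because probes differ in how brightly they hybridize.

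EGF family ligands are made as membrane-anchored precursors. ADAM proteases, above all ADAM17, release them, and the soluble growth factors bind the ERBB receptor kinases on the same or on neighbouring cells. EGF, TGFA, AREG and EPGN bind EGFR, HBEGF, BTC and EREG bind EGFR and ERBB4, and the neuregulins bind ERBB3 or ERBB4. Receptor activation drives the RAS and ERK cascade, which switches on early transcription factors and also its own inhibitors. In macrophages the ligands are best known as signals to epithelial and stromal cells.

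EREG and AREG lie beside each other on chromosome 4, in a cluster with EPGN and BTC. Because these neighbours rose and fell together over time but differed in sign under vit C at 24 and 48 h, the 250 bases before their start sites are shown with those of HBEGF on chromosome 5. The sequences are those of RefSeq (GRCh38.p14), 5′ to 3′ in the direction of the gene. Capitals mark every match, on either strand, to TGANTCA (AP-1 motif), TGACG (core of the CRE), TATAAA or GGGCGG (GC box).
EREG, chr4:74364895-74365144, plus strand: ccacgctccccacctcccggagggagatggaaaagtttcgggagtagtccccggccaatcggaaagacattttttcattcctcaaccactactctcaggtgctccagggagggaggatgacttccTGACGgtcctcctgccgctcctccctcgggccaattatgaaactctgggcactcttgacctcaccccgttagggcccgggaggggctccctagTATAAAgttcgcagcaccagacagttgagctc
AREG, chr4:74444886-74445135, plus strand: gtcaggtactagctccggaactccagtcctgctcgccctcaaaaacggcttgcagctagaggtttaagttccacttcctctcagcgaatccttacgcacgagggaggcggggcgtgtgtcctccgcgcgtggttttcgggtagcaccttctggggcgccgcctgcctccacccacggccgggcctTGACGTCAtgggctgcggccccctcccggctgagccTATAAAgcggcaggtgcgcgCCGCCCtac
HBEGF, chr5:140346604-140346853, minus strand: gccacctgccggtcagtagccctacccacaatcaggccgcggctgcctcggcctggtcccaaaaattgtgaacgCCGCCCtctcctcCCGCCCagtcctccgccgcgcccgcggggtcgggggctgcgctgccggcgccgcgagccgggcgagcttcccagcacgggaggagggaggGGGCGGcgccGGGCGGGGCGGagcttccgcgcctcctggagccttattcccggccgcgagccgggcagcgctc
EREG and AREG each held TATAAA, starting 32 and 29 bases before the start site, and each held TGACG. In AREG the latter was matched on both strands at overlapping positions, 65 and 62 bases before the start site. HBEGF held neither, but it held GGGCGG at 5 places, of which the last pair overlaps, and AREG held it once. Among 35116 promoter stretches of this length in the table, 10.7% held TATAAA, 21.2% TGACG, 42.6% GGGCGG and 6.6% TGANTCA, which none of the 3 shown held. A match is only a match of letters.

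Of the 6 members, 4 were measured well above background on all 19 arrays by their brightest probe, namely EREG, AREG, HBEGF and NRG1. BTC was above background on 14 arrays. TGFA was not well above background on any array. The macrophage label was checked with 10 marker genes, and 9 of them, including CD14, CD68, CSF1R and ITGAM, were above background on every array, with LYZ on 18. Of markers of other cell types, CDH1 and KRT5 (epithelial), COL1A2 (fibroblast), CD3D (lymphocyte) and CDH5 (endothelial) were above background on no array. Others were above background on every array, among them the epithelial KRT8 and KRT18, the fibroblast PDGFRA and THY1, the lymphocyte CD3E and CD79A and the endothelial VWF and CLDN5. Some of these lists moved with the treatment. The summed level of the fibroblast list, in log2, was higher in vit C-treated cells at each time, at 2.36 to 2.62 against 0.83 to 1.49 in UT cells at 8 h, 2.28 to 2.91 against 1.83 to 2.03 at 24 h, 3.18 to 3.54 against 2.62 to 2.75 at 48 h and 2.72 to 2.85 against 1.85 to 2.51 at 96 h. At 48 h the endothelial list was at 0.30 to 0.45 with vit C against -0.69 to -0.57, and the epithelial list at 1.36 to 1.37 against 1.68 to 1.74. At 8, 24 and 96 h the groups overlapped for the endothelial and epithelial lists. The summed level of the lymphocyte markers CD3D, CD3E, CD2, MS4A1 and CD79A was higher with vit C at 8 h, at 1.68 to 1.86 against 0.14 to 0.80, and at 48 h, at 1.83 to 2.25 against 0.74 to 1.28, and the groups overlapped at 24 and 96 h. Their part in the results was not tested. In RNA from whole cultures, fewer expressing cells and less RNA per cell cannot be told apart.

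The arrays lay on 4 slides, and the 75th percentile of the signal was 296.8 to 638.5 on 17 of them and 806.3 and 923.7 on the vit C 96 h arrays. UT cells at 8, 24 and 48 h were on slide 1 and vit C-treated cells at 8 and 24 h on slide 2. Slide 1 also held UT 96 h replicate 1, and slide 2 held the other UT 96 h arrays and vit C 48 h replicate 1. Vit C 48 h replicate 2 was alone on slide 3, and both vit C 96 h arrays were on slide 4, scanned on another day, so that slide and treatment cannot be told apart at 96 h. Of the UT 96 h arrays, replicate 3 correlated less with the others (r = 0.968 and 0.962 across probes) than these did with each other (0.981), and values without it are given below.

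Over time the 4 measured ligands shared a course of rise and fall. Each was higher at 24 and 48 h than at 8 h and lowest at 96 h, in UT and in vit C-treated cells. The vit C arrays of 96 h shared neither slide nor scan day with any other array, so that slide, scan day and time cannot be told apart in their fall. Marker lists also moved over time in UT cells. From 8 to 96 h the range of the endothelial sum moved down (0.17 to 0.20 at 8 h, -1.39 to -0.999 at 96 h). That of the macrophage sum did too (8.60 to 8.79, then 8.35 to 8.48), while the fibroblast sum moved up (0.83 to 1.49, then 1.85 to 2.51). In vit C-treated cells the endothelial sum moved down from 48 to 96 h (0.30 to 0.45, then -1.51 to -1.28). The sum of the 5 lymphocyte markers did so as well (1.83 to 2.25, then 0.27 to 0.49), as did the macrophage and fibroblast sums. The epithelial sum moved up (1.36 to 1.37, then 1.51 to 1.52). The part of these lists in the course was not tested. Under vit C, EREG was about 3-fold higher than in UT cells at 24 and 48 h. By their brightest probes, AREG, HBEGF and NRG1 had lower means than in UT cells at all 4 times. HBEGF did not keep this sign at 8 and 48 h with the slide as a block, as given below.

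**Figure D1:**
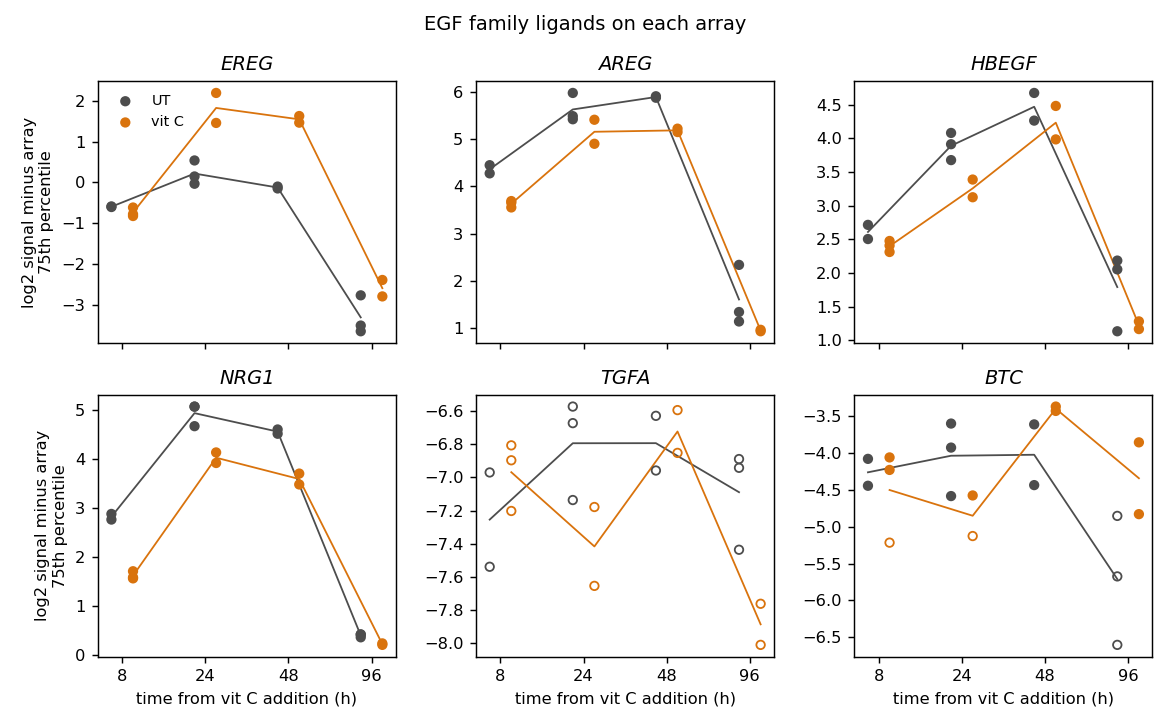
Level of the brightest probe of each ligand (y axis, log2 signal minus the 75th percentile of the array) against time from vit C addition (x axis, h). Each point is 1 array of UT (grey) or vit C-treated cells (orange), lines join group means, and open points were not well above background. EREG, AREG, HBEGF and NRG1 were higher at 24 and 48 h than at 8 h and lowest at 96 h, and EREG at 24 and 48 h has its vit C arrays above its UT arrays.

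EREG encodes epiregulin, a broad-acting ligand of EGFR and ERBB4 that monocytes and macrophages can make. In UT cells its level was -0.61 and -0.59 at 8 h, 0.54, 0.14 and -0.035 at 24 h, -0.15 and -0.10 at 48 h, and -3.51, -3.65 and -2.77 at 96 h. In vit C-treated cells it was -0.78, -0.62 and -0.83 at 8 h, 1.46 and 2.19 at 24 h, 1.63 and 1.46 at 48 h, and -2.80 and -2.39 at 96 h. At 24 and 48 h every vit C array lay above every UT array, at 8 h every vit C array lay slightly below, and at 96 h the groups overlapped through UT replicate 3.
The difference, vit C minus UT on the log2 scale, was -0.14 at 8 h, 1.61 at 24 h (3.05-fold), 1.67 at 48 h (3.19-fold) and 0.72 at 96 h, with standard errors of 0.28, 0.28, 0.31 and 0.28. In order of level, the vit C groups of 24 and 48 h (1.82 ± 0.52 and 1.54 ± 0.12, SD, n = 2 each) came first and did not differ beyond their spread. UT cells at 24 h (0.21 ± 0.29, n = 3) and 48 h (-0.13 ± 0.033, n = 2) followed, then both groups of 8 h, then vit C and UT cells at 96 h. Without UT 96 h replicate 3 the difference at 96 h was 0.99 in place of 0.72, and with normexp background correction it was 0.094.
The other EREG probe gave dimmer signals in the same pattern. Its difference was 1.35 at 24 h and 1.39 at 48 h, and its levels followed those of the brightest probe with r = 0.98 over the 19 arrays, as a description. At 96 h no UT array and 1 of 2 vit C arrays were well above background by it, so no fold is given there.

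AREG encodes amphiregulin, an EGFR ligand that myeloid and lymphoid cells release during tissue repair. It was read by 1 probe. In UT cells its level was 4.45 and 4.28 at 8 h, 5.98, 5.42 and 5.49 at 24 h, 5.91 and 5.88 at 48 h, and 1.34, 1.14 and 2.34 at 96 h. In vit C-treated cells it was 3.69, 3.66 and 3.56 at 8 h, 4.90 and 5.41 at 24 h, 5.15 and 5.23 at 48 h, and 0.96 and 0.93 at 96 h. The vit C arrays lay below all UT arrays at each time, by a narrow margin at 24 h, where the highest vit C array was at 5.41 and the lowest UT array at 5.42.
Vit C minus UT came to -0.73, -0.47, -0.71 and -0.66 at 8, 24, 48 and 96 h, with standard errors of 0.30, 0.30, 0.33 and 0.30, so that it stayed under 2-fold at all 4 times. UT replicate 3 carried the highest AREG of the 96 h arrays, and without it the difference at 96 h was -0.29. At 24 h the difference was -0.22 without vit C replicate 1 and -0.73 without vit C replicate 2. From 48 to 96 h AREG was 19.6-fold lower in UT cells and 18.9-fold lower in vit C-treated cells.

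HBEGF encodes heparin-binding EGF-like growth factor, a ligand of EGFR and ERBB4 that also serves as the receptor for diphtheria toxin. In UT cells its level was 2.71 and 2.50 at 8 h, 3.68, 4.08 and 3.91 at 24 h, 4.67 and 4.26 at 48 h, and 2.18, 2.05 and 1.13 at 96 h. In vit C-treated cells it was 2.47, 2.31 and 2.41 at 8 h, 3.39 and 3.12 at 24 h, 4.48 and 3.98 at 48 h, and 1.17 and 1.28 at 96 h. The vit C arrays lay below the UT arrays at 8 and 24 h, and the groups overlapped at 48 and 96 h.
Vit C minus UT came to -0.21, -0.63, -0.24 and -0.57 at the 4 times, with standard errors of 0.28, 0.28, 0.31 and 0.28. In contrast to EREG and NRG1, HBEGF had its highest mean at 48 h in both arms, at 4.47 ± 0.29 (SD, n = 2) in UT cells and 4.23 ± 0.35 (n = 2) in vit C-treated cells. From 48 to 96 h it was 6.41-fold lower in UT cells and 8.06-fold lower in vit C-treated cells. UT replicate 3 carried the lowest HBEGF of the UT 96 h arrays, and without it the difference at 96 h was -0.90. With an array left out it ranged from -0.90 to -0.37 at 96 h. At 48 h it ranged from -0.48 without vit C replicate 1 to 0.012 without vit C replicate 2. The other HBEGF probe gave differences of -0.23, -0.64, -0.46 and -0.44 at the 4 times.

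NRG1 encodes neuregulin 1, a ligand of ERBB3 and ERBB4 that exists in many isoforms. In UT cells its level was 2.88 and 2.76 at 8 h, 5.06, 4.66 and 5.06 at 24 h, 4.60 and 4.51 at 48 h, and 0.42, 0.36 and 0.42 at 96 h. In vit C-treated cells it was 1.56, 1.58 and 1.71 at 8 h, 3.91 and 4.13 at 24 h, 3.48 and 3.70 at 48 h, and 0.24 and 0.21 at 96 h. By this brightest probe the groups did not overlap at any time.
The difference was -1.20 at 8 h (2.30-fold lower), -0.91 at 24 h (1.88-fold lower), -0.97 at 48 h (1.95-fold lower) and -0.18 at 96 h, with standard errors of 0.17, 0.17, 0.19 and 0.17. From 48 to 96 h NRG1 was 17.8-fold lower in UT cells and 10.3-fold lower in vit C-treated cells, and its 96 h groups were the lowest of the 8. NRG1 was read by 6 probes, which may cover different isoforms. At 8 h 5 of them were lower with vit C, by differences from -1.29 to -1.11, and in the dimmest, above background on 1 of 3 vit C arrays, the groups overlapped. At 24 and 48 h all 6 had lower means, from -1.37 to -0.42 and from -0.97 to -0.62. The groups overlapped at 24 h in the probes with differences of -0.42 and -0.45, which were above background on all arrays. At 96 h the dimmest probe was not well above background on any array. Of the other 5, 1 was higher, at 0.27, and 4 lay between -0.57 and -0.064. In the probes at 0.27 and -0.064 the groups overlapped.

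**Figure D2:**
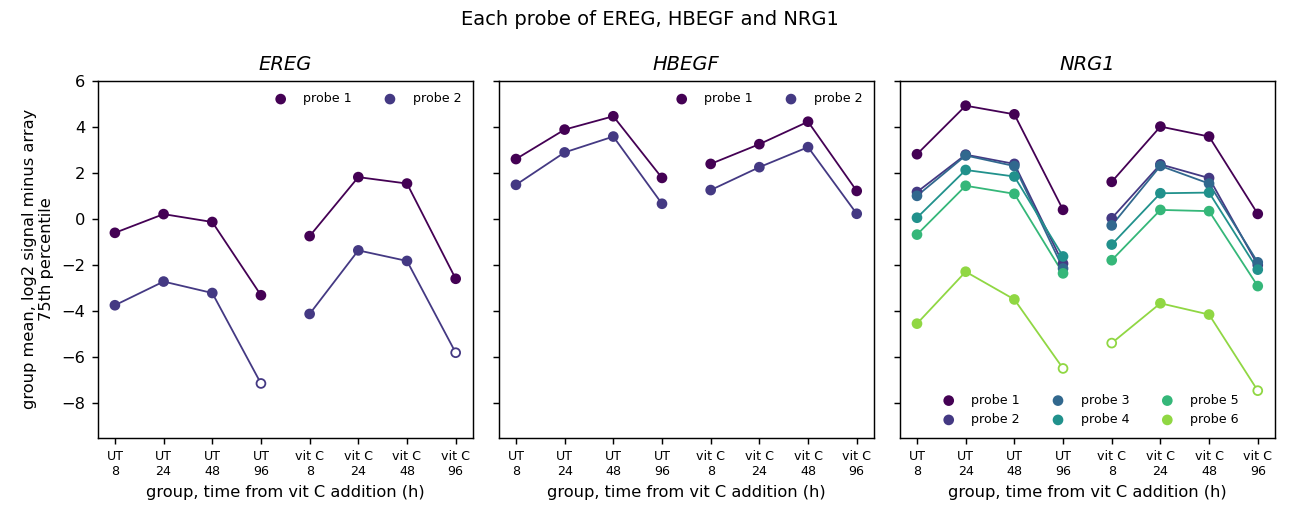
Group mean of each probe (y axis, log2 signal minus the 75th percentile of the array) for EREG, HBEGF and NRG1 in the 8 groups (x axis, UT and then vit C by time in h). Open points mark groups in which not every array was well above background, and each probe was lowest at 96 h in both arms.

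TGFA, the EGFR ligand transforming growth factor alpha, was read by 1 probe between -8.01 and -6.57 on the 19 arrays. All of these values were within background, so no fold is given.
BTC encodes betacellulin, a ligand of EGFR and ERBB4. Its brighter probe was above background on all arrays of UT cells at 8, 24 and 48 h, with levels from -4.58 to -3.60, and on none at 96 h, where the levels were -5.67, -4.85 and -6.60. In vit C-treated cells both arrays of 96 h, at -3.86 and -4.83, were above background. Against the lowest signal well above background, the vit C 96 h group was at least 2.55-fold higher than UT cells of 96 h by this probe, from a measured difference of 1.37. The bound rests on the processing and on single arrays. The difference was 0.31 with signals floored at 20, -0.17 with normexp and -0.031 with the mean over the probes of the gene. It was 0.92 without UT replicate 3 and 0.88 without vit C replicate 1. The other BTC probe, within background on every array, was lower in the vit C group.

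**Figure D3:**
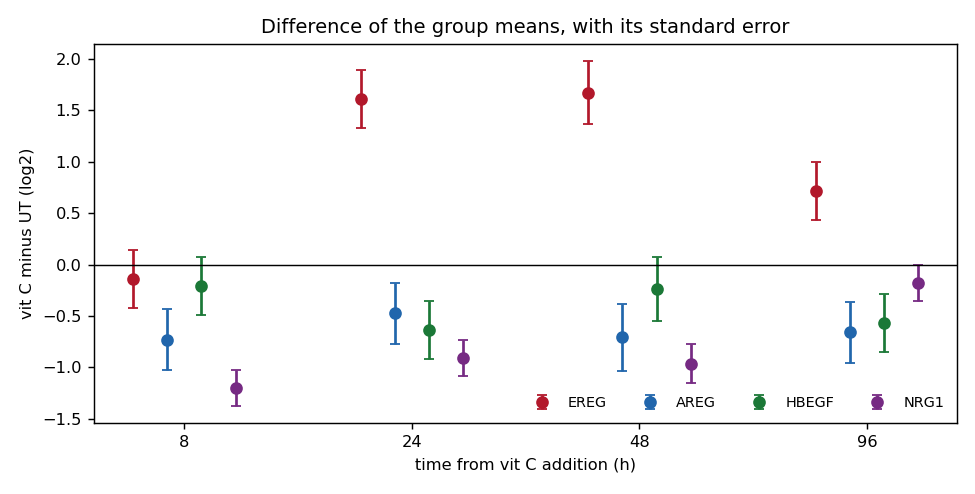
Difference of the group means, vit C minus UT on the log2 scale (y axis), for the brightest probe of EREG, AREG, HBEGF and NRG1 at each time from vit C addition (x axis, h). Bars are standard errors from the fit of 8 groups over 19 arrays. EREG is above 0 at 24 and 48 h, at 1.61 and 1.67, while AREG, HBEGF and NRG1 lie below 0 at all 4 times.

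A gene was called a DRG where some probe differed by 1 or more on the log2 scale at a Benjamini-Hochberg q of 0.05 or less in limma, provided that no other probe of it went the other way. At 8 h this held for NRG1 (lower), beside 0.553% of all genes tested. At 24 h it held for EREG (higher) and NRG1 (lower, through 2 of the dimmer probes), beside 1.67%. At 48 h it held for EREG, beside 3.64%. At 96 h it held for EREG through its dimmer probe alone, which no UT array of 96 h measured above background, beside 12.8%. AREG, HBEGF, TGFA and BTC were called at no time, with BTC set aside at 8 and 96 h and NRG1 at 96 h for opposing probes. Since the members were chosen on these values, nothing is read from the counts.
By size alone, the brightest probe of 1 member was past 2-fold at each time, NRG1 at 8 h, EREG at 24 and 48 h and BTC at 96 h, where 8.12%, 8.53%, 10.5% and 15.7% of all genes were. At 24 h 3 members were past it without UT replicate 2 or without vit C replicate 2, and at 96 h 0 were without UT replicate 3 or vit C replicate 1. At 48 h 2 members were past it without UT replicate 1, UT replicate 2 or vit C replicate 2. With the mean over the probes of a gene the member past it at 96 h was EREG, at 1.03, and not BTC. The groups did not overlap for 4, 5, 4 and 4 members at the 4 times, beside 38.9%, 30.3%, 50.7% and 36.9% of all genes. The counts at 24 and 96 h include TGFA, which was within background on every array.

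The slides bear on these differences, since UT and vit C-treated arrays of 8, 24 and 48 h shared none, and they are linked only through the UT 96 h arrays on slides 1 and 2. With the slide as a block EREG differed by -0.44, 1.31 and 1.45 at these times. NRG1 was then -1.17, -0.88 and -1.05, and AREG -1.13, -0.87 and -1.14, past 2-fold at 8 and 48 h. HBEGF changed sign, to 0.38 at 8 h and 0.60 at 48 h, and was -0.043 at 24 h. Between the UT 96 h arrays of slide 2 and slide 1 the levels differed by 0.30 for EREG, 0.40 for AREG, -0.59 for HBEGF and -0.028 for NRG1. This link is 1 array on slide 1 against 2 on slide 2, replicate 3 among them. HBEGF was 2.18 on slide 1, and 2.05 and 1.13 in replicates 2 and 3 on slide 2. AREG was 1.34 on slide 1, and 1.14 and 2.34 in these replicates. The size of the block values for HBEGF and AREG thus leans on replicate 3, and values without it were not computed. At 48 h the vit C side of the block rests on replicate 1, as replicate 2 was alone on slide 3.

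The course over time was read within slides as far as these allowed. Within slide 1, in UT cells, the 24 h level minus the 8 h level was 0.81 for EREG, 1.27 for AREG, 1.28 for HBEGF and 2.11 for NRG1. The 1 UT array of 96 h on that slide lay below the 48 h mean by a log2 difference of -3.38 for EREG, -4.56 for AREG, -2.29 for HBEGF and -4.13 for NRG1. Within slide 2, in vit C-treated cells, the 24 h level minus the 8 h level was 2.56, 1.53, 0.86 and 2.40 in the same order. The fall from 48 to 96 h in vit C-treated cells could not be read within a slide. EREG had a larger difference from 8 to 24 h in vit C-treated cells than in UT cells, a contrast that was not tested.
From 8 to 96 h in UT cells, EREG was 6.56-fold lower, AREG 6.77-fold lower and NRG1 5.34-fold lower, and HBEGF 1.76-fold lower. The first 3 met the rule for a DRG, as 16.1% of all genes tested did in either direction and 7.16% as lower. Past 2-fold by the brightest probe were 4 members, all lower, BTC included, as against 17.8% of all genes in either direction.

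Over the 8 group means, AREG had an r of 0.97 with NRG1, 0.94 with HBEGF and 0.86 with EREG. EREG had 0.79 with HBEGF and 0.83 with NRG1, and HBEGF had 0.92 with NRG1. These are descriptions over 8 points that share the same arrays. Among 17294 genes above background on all arrays, the 3 most like EREG over the 8 means were listed as LOC401357, THC2632286 and RPGR, with r from 0.98 to 0.99. AREG was most like CA431756, FAM127B and IER3, HBEGF most like KIAA0404, C11orf9 and ITGB3, and NRG1 most like CCDC9, DAXX and RHOC, with r from 0.98 to 0.99. For BTC, with 17295 genes compared, they were CCDC109A, EPN1 and THC2734788, at 0.95, 0.94 and 0.94.

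The other genes of the pathway were 66, all on the array, in lists that also were drawn up with earlier results known. Among the 5 other ligands, EGF, EPGN, NRG3 and NRG4 were not above background on most arrays. EGF was on 2 of the 19, EPGN on none, NRG3 on 1 and NRG4 on 4. NRG2 was above background on 17, with group means from -5.13 to -4.18. NRG2 and NRG3 were called lower in vit C-treated cells at 96 h through a dimmer probe each, while the brightest probes gave -0.69 (q = 0.179) and, within background for NRG3, no fold.

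Of the 4 ERBB receptors, 2, 3, 1 and 1 were tested under vit C at 8, 24, 48 and 96 h, the others having opposing probes, and limma called 0 of those tested. EGFR, the receptor of most of these ligands, had group means in UT cells of -4.48 ± 0.12 (SD, n = 2) at 8 h, -3.65 ± 0.52 (n = 3) at 24 h, -2.19 ± 0.16 (n = 2) at 48 h and -4.89 ± 0.80 (n = 3) at 96 h. In vit C-treated cells they were -5.12 ± 0.45 (n = 3), -3.95 ± 0.29 (n = 2), -2.62 ± 0.43 (n = 2) and -4.37 ± 0.92 (n = 2). EGFR was thus highest at 48 h in both arms.
ERBB4, which binds EREG, HBEGF, BTC and the neuregulins, was above background on all arrays and fell in UT cells from 0.44 ± 0.026 (n = 2) at 8 h to -1.05 ± 0.57 (n = 3) at 96 h, a difference of -1.49 (SE 0.30, q = 0.00242 in limma). Its course was not even, with UT means of -0.71 at 24 h and 0.33 at 48 h. ERBB2, the partner receptor without a ligand of its own, lay between -3.09 and -1.89 in its group means. At 96 h its level was -2.95 to -2.89 in vit C-treated cells, below the -2.28 to -1.58 of UT cells, by a difference of -1.03 (SE 0.29) that was not tested because its other probe went the other way. ERBB3 was above background on 2 of the 19 arrays.

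**Figure D4:**
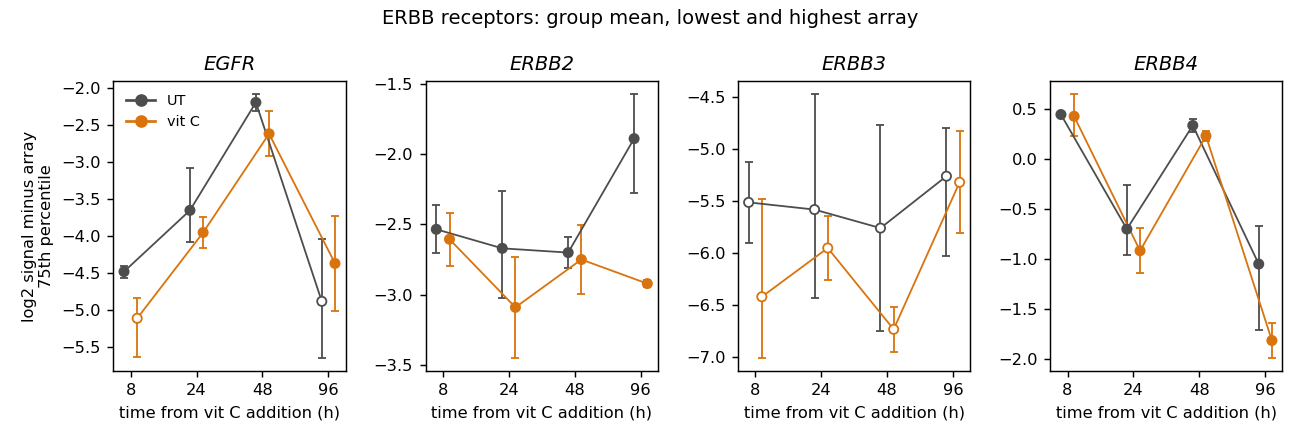
Group mean of the brightest probe of each ERBB receptor (y axis, log2 signal minus the 75th percentile of the array) at each time from vit C addition (x axis, h) in UT (grey) and vit C-treated cells (orange). Bars run from the lowest to the highest array, and open points mark groups in which not every array was well above background. EGFR is highest at 48 h in both arms, and ERBB4 is lowest at 96 h.

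Of the 66 pathway genes, 49, 52, 48 and 50 were tested under vit C at 8, 24, 48 and 96 h, the others having opposing probes. By limma 0, 0, 3 and 11 of those tested were called at these times, beside 0.553%, 1.67%, 3.64% and 12.8% of all genes tested. The median difference of the 66 genes was -0.20, -0.21, -0.19 and -0.048 at the 4 times, beside -0.046, -0.14, -0.012 and -0.15 for all genes. Without adjustment, 4 genes at 8 h and 3 at 24 h were past 2-fold with p up to 0.05.
At 48 h ADAM12, a metalloprotease that can shed HBEGF, rose with vit C by 1.58 (SE 0.39, q = 0.0402). SPRED1, an inhibitor of RAS and ERK signalling, fell by 2.26 (SE 0.27, q = 0.000706), and DUSP6, a phosphatase of ERK, fell by 1.06 (SE 0.27, q = 0.0448). All 3 were above background on both arrays of each group. The UT arrays of 48 h were on slide 1 and the vit C arrays on slides 2 and 3, and with the slide as a fixed block the count was 0. It was also 0 with the compared groups alone, and 1 without UT 48 h replicate 2 or without vit C 48 h replicate 1.
At 96 h EGR2 fell by 2.64 (SE 0.28, q = 0.00011), FOSB by 2.29 (SE 0.28, q = 0.00034) and IER2 by 1.22 (SE 0.17, q = 0.000909). These are early genes that ERK activity induces. EGR3, above background on 1 of 2 vit C and 2 of 3 UT arrays, was called lower as well, so that 4 of the 11 such genes tested fell and 0 rose, and the other 5 of the 16 had opposing probes. Of all genes tested at 96 h, 10% were called lower, 2644 as against 719 called higher. The 3363 genes called in all depended on scaling and on single arrays, with 763 to 1441 under the scalings other than the deposited values and 479 to 5965 with an array left out. Among the 14 of 16 feedback inhibitors tested SPRY1 fell by 1.97 (SE 0.37, q = 0.00635), and RASA2 rose by 1.04 (SE 0.31, q = 0.0428), as SOCS5 did through its dimmer probe. Of the 10 genes of ligand shedding tested, ADAM19 and RHBDL2 were called lower through a dimmer probe only, and the brightest RHBDL2 probe was above background on no array. Of the 14 genes of the signalling core 10, 13, 11 and 9 were tested at the 4 times, and limma called 0 of them. The pathway count at 96 h was 0 with the compared groups alone, 3 with signals floored at 20 and 5 with normexp. It was 16 without UT replicate 3, 3 without vit C replicate 1, 4 without vit C replicate 2, 6 without UT replicate 1 and 7 without UT replicate 2, and the treatment cannot be told apart from the slide there.

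Between 8 and 96 h in UT cells, 1 of the 53 pathway genes tested rose and 20 fell, beside 16.1% of all genes in either direction. Of the early genes induced by ERK, 10 of the 15 tested fell and 0 rose, with a median of -1.30 over the 16, beside 0.026 over all genes. EGR1 fell by 3.65 (SE 0.25, q = 2.11e-07), IER3 by 2.10 (SE 0.21, q = 5.12e-06) and MCL1 by 1.26 (SE 0.20, q = 0.000341). The group means of EGR1 in UT cells were 4.02, 3.95, 3.06 and 0.37 at the 4 times, and those of IER3 were 5.79, 6.51, 6.59 and 3.70.
Of the 12 feedback inhibitors tested 5 fell, LRIG1, SPRY2, SPRED2, DUSP5 and DUSP6, with DUSP5 by 1.92 (SE 0.22, q = 1.94e-05). Among the 10 genes of ligand shedding tested ADAM12, above background on 1 of the 2 arrays of 8 h, rose by 2.83 (SE 0.36, q = 5.03e-05). ADAM17, the main sheddase, fell by 1.58 (SE 0.19, q = 3.37e-05), as did ADAM8, RHBDF1, which helps ADAM17 mature, and TIMP3, which inhibits it. In UT cells ADAM17 was level until 48 h, at 4.59, 4.73 and 4.58, and was 3.01 at 96 h.

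**Figure D5:**
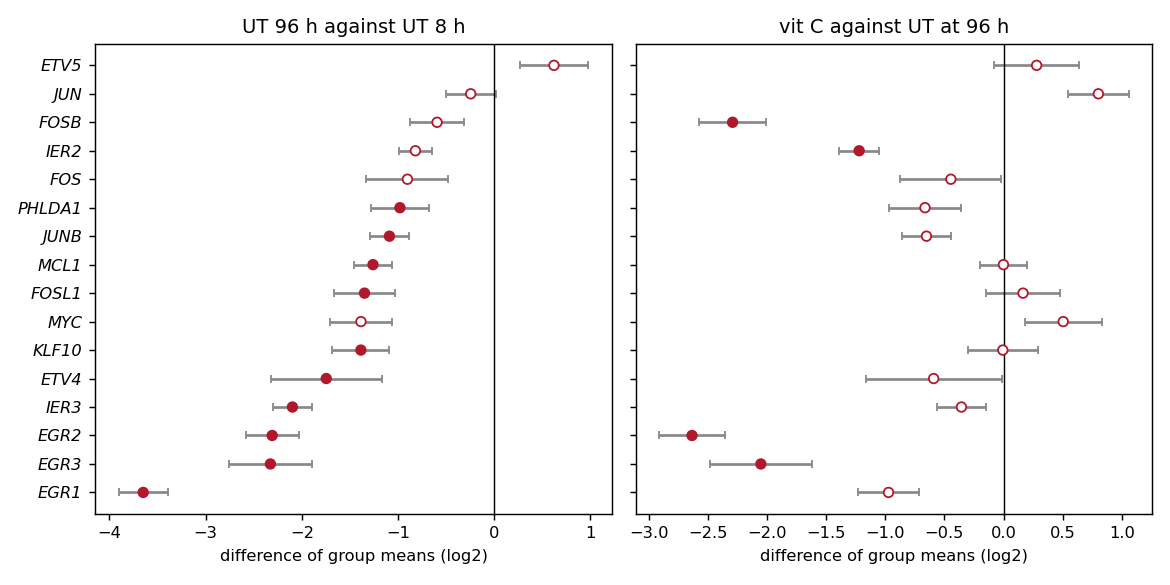
Difference of group means on the log2 scale (x axis, bars are standard errors) for the 16 early genes that ERK induces (y axis), for UT cells at 96 h against 8 h and for vit C-treated against UT cells at 96 h. Filled points are genes called as DRGs, 10 lower on the left and 4 lower on the right, and open points were not called or had opposing probes.

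Whether the vit C effect differed between times was tested for the pathway genes by an F test in limma over the 4 effects. Of 66 genes 2 passed, EGR2 (q = 0.0124) and DUSP4 (q = 0.0255), beside 0.999% of all genes by their brightest probe. For EGR2 the effects were -0.10, 0.0027, -1.13 and -2.64 at 8, 24, 48 and 96 h, and for DUSP4, an ERK phosphatase, they were -0.67, -0.23, 0.78 and 0.63. Without either vit C 96 h array 0 genes passed, without vit C 24 h replicate 1 there were 5, and without UT 96 h replicate 3 there were 4. Without either UT 8 h array, either UT 48 h array, vit C 8 h replicate 1 or 2, or vit C 48 h replicate 1, 1 gene passed.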

How the data were processed

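RNA of 19 THP-1 samples in 8 groups was hybridized to Agilent arrays with a single dye. The authors extracted spot intensities with Feature Extraction, version 10.5.1.1 in the file headers, and deposited the processed signal, an intensity after detrending and without normalization between arrays. They also deposited log2 values shifted to each array's 75th percentile, which equal the log2 of the processed signal less a constant of the array, for probes with 1 spot. These served as an alternative.

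Here the 51538 noncontrol spots were taken to log2, spots of a probe were averaged to 50238 probes, and each array's 75th percentile was taken off. Between 57.6% and 72.8% of probes per array had a spot marked well above background. No spot was saturated. Precision is limited by how few arrays there were, and a fold against a group without an array above background is given as a lower bound, from the lowest signal well above background on each array.

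The 19 arrays were fitted with a mean for each of the 8 groups in R 4.3.3 with limma 3.58.1 (lmFit, eBayes, 2-sided), with Benjamini-Hochberg adjustment over all probes of genes without opposing probes. The functions were tested on simulated data. Groups came from the sample titles, and replicates are separate cultures per the methods. The members, the pathway and marker lists, the rule for named genes and the alternatives were chosen with earlier results of these data known. Named were the 6 members, the other ligands and receptors, up to 4 called genes per further list, further called genes by name, and the 3 genes most like each member by Pearson's r over the 8 group means among genes above background on all arrays. EGR1, IER3, MCL1, DUSP5, ADAM17 and DUSP4 were picked for full values after they were seen. Array gene names are those of its design. Of the lymphocyte list 5 markers are reported here. Promoters were matched by symbol to RefSeq for 5 of the 6 members.

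Results were recomputed with the t-test of the methods, the compared groups alone, quantile normalization, normexp (offset 50), a percentile of detected probes only, signals floored at 20, without dim probes, with gene means of probes, opposing probes kept, the slide or replicate number as a block, the deposited log2 values, and each array left out in turn. Plots used Python 3.11.15 and matplotlib 3.10.9.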

Additional observations from a re-analysis of the deposited data

Results flagged for a closer look

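The brightest EREG probe separated the arms in opposite directions at different times. Every vit C array lay above every UT array at 24 h and 48 h, with differences of 1.61 and 1.67 on the log2 scale. At 8 h every vit C array lay below every UT array, but the difference of -0.14 was within its standard error of 0.28, the arms overlapped in the other EREG probe, and 38.9% of all genes had no overlap at that time, so it is not read as a change. The difference between the times was not tested, since EREG was chosen on these values.

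For EGR2 and DUSP4 the vit C effect differed between the 4 times by limma's F test, with q of 0.0124 and 0.0255. EGR2 had a lower group mean with vit C at 48 and 96 h, by -1.13 and -2.64, and DUSP4 had a lower mean at 8 h, by -0.67, and a higher one at 48 and 96 h, by 0.78 and 0.63. At 96 h slide and scan day cannot be told apart from treatment in these differences. The part of the slides at the other times was not tested.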

How the results depend on the processing

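Of 320 member differences recomputed under an alternative, 301 kept their sign and 292 lay within 1 SD of the reported value. Some alternatives could not move them, so these counts overstate how far the values were tested. Leaving out dim probes kept the same differences, and the floor lay below all signals of the 4 measured ligands. Gene means were unchanged for AREG and TGFA, with 1 probe each, and the deposited values differed by a constant of the array. The sign turned 15 times, for HBEGF, TGFA and BTC alone, and 4 differences of TGFA were 0 with signals floored at 20. With the slide as a fixed block 2 members were past 2-fold at 8 h and 3 at 48 h, in place of 1, and pathway calls at 48 h went from 3 to 0. At 48 h the vit C side of that fit rested on replicate 1 alone, since replicate 2 was the only array on slide 3. At 96 h the slide could not be fitted as a fixed block. With the replicate number as a block (replicate block), 2 members were past 2-fold at 24 h and 6 pathway genes were called at 96 h. The F test over the 4 effects then gave 1. Same-numbered arrays had deviations with r from -0.112 to 0.09, so the numbers were not taken as pairs.

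Pathway calls at 96 h, reported as 11, were 6 with quantile normalization, 5 with normexp, 6 with the percentile over detected probes, 3 with a floor of 20, 5 without dim probes, 6 with gene means of probes, and 0 with the methods' t-test or with the compared groups alone. Calls over all genes, reported as 3363 at 96 h, were 1000, 822, 1441, 763, 961, 2521, 0 and 3 in the same order. Pathway calls at 48 h, reported as 3, were 5 with the floor, 5 without dim probes, and 0 with the t-test or the compared groups alone. Calls over all genes, reported as 926 at 48 h, were then 771, 968, 1 and 0. Pathway calls at 24 h, reported as 0, were 1 with the floor and 1 with opposing probes kept, beside 361 and 454 over all genes. With normexp or the floor 0 members were past 2-fold at 96 h. The F test, reported as 2 genes, gave 5 with normexp and 7 with the floor, both alternatives added after seeing the data. The causes were not tested.

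With each array left out in turn, pathway calls ranged from 0 to 1 at 24 h, 1 to 3 at 48 h and 3 to 16 at 96 h. Members past 2-fold ranged from 1 to 3 at 24 h, 1 to 2 at 48 h and 0 to 1 at 96 h, and genes passing the F test from 0 to 5. Where this leaves a single array, its spread is taken from the other groups. Calls from 8 to 96 h in UT cells, reported as 21, were 15 to 24 under 11 alternatives and 17 to 22 with an array left out. Levels near background limit TGFA, BTC, the dimmer EREG probe at 96 h and the calls through dim probes.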
